A study of Mus musculus with 24 samples.

Results

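The genes described here are the inflammatory cytokines and regulators of nuclear factor kappa B (NF-kB) Il1b, Il1a, Il1rn, Tnf, Nlrp3, Nfkbiz, Nfkbia, Tnfaip3, Il10 and Tgfb1. They are 10 of the 23420 genes in the deposited tables, were taken by symbol, and were all found in both tables. Poly-A RNA was sequenced from bone marrow-derived macrophages of male C57BL/6 mice aged 3 months, grown from marrow with M-CSF for 6 days. There were 24 samples in 12 groups of 2. In the antagonist experiment the groups were interleukin-4 (IL-4) with GW9662, IL-4 with vehicle, GW9662 alone, and a vehicle of DMSO and ethanol, each for 24 h. IL-4 with vehicle is called IL-4 or IL-4 alone below. GW9662 blocks the ligand pocket of the nuclear receptor PPARγ. In the memory experiment, cells labelled PpargKO and wild-type (Wt) cells were each read in 4 states. Second-exposed cells had IL-4 for 24 h, a washout of 24 h and IL-4 again for 3 h. Washed-out cells had the same without the last 3 h. First-exposed cells had only the final 3 h of IL-4, and unstimulated cells had none. The labels print the IL-4 dose as 20 ng/ul and give no GW9662 dose. They do not name the deleted part of Pparg, what drives its deletion, or how many mice were used. The p-values here thus rest on the spread between the 2 samples of a group, pooled over all groups of an experiment, and this spread may be technical.

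IL-4 acts through the transcription factor STAT6 and turns macrophages to the alternatively activated state, which is known for tissue repair and for weak production of inflammatory cytokines. NF-kB drives the inflammatory cytokine genes, and several of its own targets feed back on it: Nfkbia encodes the inhibitor IκBα that holds NF-kB in the cytoplasm, Tnfaip3 encodes the ubiquitin-editing enzyme A20, and Nfkbiz encodes the nuclear cofactor IκBζ. Interleukin-1β, from Il1b, is released after cleavage by the inflammasome, whose sensor is NLRP3, and is opposed by the receptor antagonist from Il1rn.

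Il1b (chr2:129364570-129371139) and Il1a (chr2:129299610-129309972) are neighbours on the minus strand of chromosome 2 in GRCm38, and Il1rn (chr2:24336853-24351494, plus strand) is on the same chromosome. Tnf is at chr17:35199381-35202007, Nlrp3 at chr11:59541568-59566956, Nfkbiz at chr16:55811375-55838899, Nfkbia at chr12:55489410-55492647, Tnfaip3 at chr10:19000910-19015657, Il10 at chr1:131019845-131024974 and Tgfb1 at chr7:25687002-25705077. Promoter windows were available for 8 of the 10 genes in the RefSeq table of GRCm38.p6, with none for Il10 and Nfkbiz. A loose NF-kB-type motif, GGG and CC with any 5 bases between them on either strand, occurred in the 300-base windows of 6 of these 8 genes, against 53.5% of all genes with a window. A STAT6-type motif, TTC and GAA with any 4 bases between them on either strand, occurred in 3 of the 8, namely Il1rn, Tnfaip3 and Nlrp3, against 8.01% of all genes. A narrower NF-kB-type form, GGG and TTTCC with any 2 bases between them, which lies within the loose one and was chosen after the matches were seen, occurred in Nfkbia, Tnfaip3 and Il1rn, against 1.89% of all genes. The 250 bases before the start site are shown for those 3 genes, each a regulator or antagonist of the inflammatory signal, with matches to the loose NF-kB-type and the STAT6-type motif in capitals. The first is chr12:55492648-55492897 on the minus strand, the second chr10:19015411-19015660 on the minus strand and the third chr2:24345041-24345290 on the plus strand, at a start site inside the annotated gene.
Nfkbia: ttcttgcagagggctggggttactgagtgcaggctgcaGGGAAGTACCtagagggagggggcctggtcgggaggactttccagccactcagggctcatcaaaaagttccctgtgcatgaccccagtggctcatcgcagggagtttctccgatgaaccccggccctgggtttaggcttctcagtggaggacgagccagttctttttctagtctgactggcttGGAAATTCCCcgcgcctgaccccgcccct
Tnfaip3: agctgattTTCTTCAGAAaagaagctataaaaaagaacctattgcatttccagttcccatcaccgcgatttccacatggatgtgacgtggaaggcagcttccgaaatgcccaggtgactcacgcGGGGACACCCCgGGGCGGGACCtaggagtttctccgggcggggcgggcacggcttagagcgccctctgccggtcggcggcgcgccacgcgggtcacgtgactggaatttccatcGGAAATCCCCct
Il1rn: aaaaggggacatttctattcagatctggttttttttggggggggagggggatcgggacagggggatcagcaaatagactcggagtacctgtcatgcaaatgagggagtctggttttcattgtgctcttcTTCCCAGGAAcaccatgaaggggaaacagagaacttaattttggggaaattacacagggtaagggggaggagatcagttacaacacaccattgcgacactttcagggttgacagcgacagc
The narrower match lies 29 bases before the start in Nfkbia and 12 bases before it in Tnfaip3, on the other strand in both. The Il1rn window has its narrower match, GGGTTTTTCC, after the start site and so outside the stretch shown. These matches describe the letters and do not show binding.

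Each deposited value is the mean of both libraries of a group in reads scaled to library size (CPM). Since a mean of 2 libraries is a sum of whole reads of known worth, most library values could be recovered. The 2 libraries are called the deeper and the shallower library of a group. Reads in genes came to 15954356 to 27656490 in the antagonist libraries and 5445629 to 16594481 in the memory libraries, so 3 reads were worth 0.105 to 0.181 and 0.183 to 0.526 CPM. All 8 macrophage markers exceeded 1 CPM in both tables, and their sum was 12380 to 43610 CPM over the groups. It was lower with IL-4 for 24 h (17580 and 17840 CPM) than without (37840 and 39180 CPM), and lower in the knockout groups (12380 to 15250 CPM) than in wild type (30770 to 43610 CPM). Most of the wild-type sum was 1 marker, Lyz2, at 21970 to 30730 CPM, whereas no marker passed 5224 CPM in a knockout library. At 24 h Lyz2 had 6575 and 6409 CPM with IL-4 and 21450 and 23270 CPM without. The sums thus largely follow 1 gene and do not measure macrophage content. No marker of T or B cells reached 1 CPM. The libraries of second-exposed wild-type cells stood apart: the 4 fibroblast or stroma markers summed to 1082 CPM in the deeper and 37.2 CPM in the shallower one, against 0.139 to 9.83 CPM in the other memory libraries. Pparg had group means of 21.1 to 40.9 CPM in knockout and 20.8 to 34.0 CPM in wild-type cells, and with the deleted part unnamed these reads do not test the knockout. Genes that share sequence with other genes were counted low in all 8 knockout libraries, in 1 of 8 wild-type memory libraries and in 5 of 8 antagonist libraries, so genotype and this way of counting cannot be told apart. The 10 genes share at most 9.13% of their 50-base words with other genes (Il1a), and 8 of them share none.

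With IL-4 for 24 h, Il1b, Nfkbiz, Nlrp3, Il10 and Nfkbia fell, and none of the set rose. By limma with Benjamini-Hochberg adjustment over all genes, 5 of 9 tested members were lower, where 18.3% of 11140 tested genes were called, 8.48% lower and 9.87% higher (945 and 1099 genes, or 1273 and 890 with reads scaled to the total in genes, which shifts the median of all genes by over 0.1). The median log2 difference of the 9 was -0.83, against -0.02 over all tested genes. In such bulk samples fewer cells of a type and less RNA per cell cannot be told apart. Il1a stayed below 1 CPM in every group of both tables, with 0 to 16 reads in a library, and was not tested.

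Il1b, the gene of the main secreted interleukin-1, had 0.644 and 0.181 CPM with IL-4 and 24.2 and 15.9 CPM with vehicle. Both IL-4 libraries were far below both vehicle libraries, and the means differed 48.6-fold (log2 difference -3.89, SE 0.42, limma adjusted p = 0.0009). Neutrophil markers, 4 genes that were found of 5 listed, summed to 132 and 124 CPM with IL-4 and 201 and 266 CPM with vehicle. In each library of this experiment most of the sum was 1 marker, Ngp, here at 79.7 and 72.3 CPM with IL-4 and 141 and 193 CPM with vehicle. The sums thus largely follow 1 gene and do not measure neutrophil content, and their part in the Il1b result was not tested. Tnf, the gene of tumour necrosis factor, had 4.60 and 4.77 CPM with IL-4 and 9.52 and 8.54 CPM with vehicle. Its libraries did not overlap, which is common between groups of 2 without any difference, and the share over all genes was not counted. The difference did not pass (log2 difference -0.82, SE 0.30, limma adjusted p = 0.105), whereas it passed without group weights (adjusted p = 0.00765). Il10, which encodes an anti-inflammatory cytokine, had 2.90 and 4.34 CPM with IL-4 and 14.1 and 13.8 CPM with vehicle. It was thus lower, as Il1b was, 3.85-fold in the means (log2 difference -1.71, SE 0.26, limma adjusted p = 0.00404), and lost the call without the deeper IL-4 library (adjusted p = 0.0525). Tgfb1, which encodes a cytokine of repair and immune restraint, had 455 and 714 CPM with IL-4 and 534 and 456 CPM with vehicle. These libraries overlapped, and Il1rn did not pass either, with 10.5 and 6.34 CPM with IL-4 and 11.2 and 10.7 CPM with vehicle (log2 difference -0.38, SE 0.25, limma adjusted p = 0.352).

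Nlrp3, the inflammasome sensor, had 11.8 and 12.4 CPM with IL-4 and 77.4 and 73.8 CPM with vehicle. The libraries of each group lay close together and the means differed 6.25-fold (log2 difference -2.55, SE 0.23, limma adjusted p = 0.000419). Nfkbiz had 2.35 and 2.05 CPM with IL-4 and 51.3 and 46.4 CPM with vehicle, a 22.2-fold difference of the means (log2 difference -3.96, SE 0.27, limma adjusted p = 0.000125). Nfkbia, the inhibitor of NF-kB, fell less, with 58.4 and 61.1 CPM under IL-4 and 107 and 106 CPM under vehicle (log2 difference -0.83, SE 0.13, limma adjusted p = 0.00489). Tnfaip3, another brake on NF-kB, had 26.7 and 21.4 CPM with IL-4 and 23.5 and 25.3 CPM with vehicle, and the libraries overlapped (log2 difference -0.03, SE 0.27, limma adjusted p = 0.967).

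**Figure D1:**
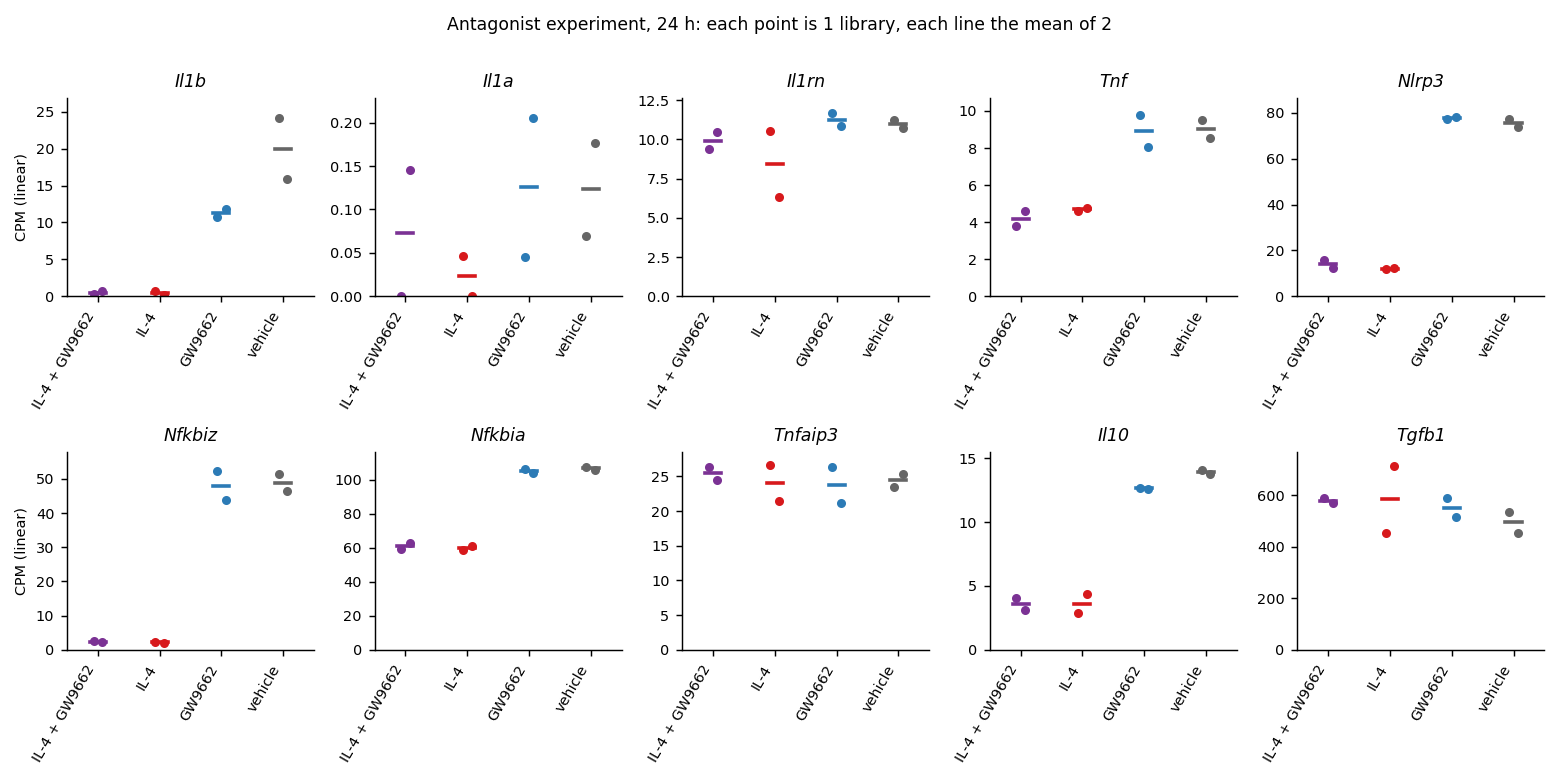
CPM (linear axes from 0) of the 10 genes in the antagonist experiment, with 1 point per library and a line at the mean of 2 libraries. Nfkbiz, Nlrp3, Nfkbia, Il10 and Tnf sit in a low pair of groups with IL-4 and a high pair without it; Il1b has 24.2 and 15.9 CPM with vehicle and under 1 CPM with IL-4.

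IL-4 lowered these genes in the presence of GW9662 as well. Of the 9 tested members, 6 fell with IL-4 plus GW9662 against GW9662 alone and none rose, where 51.2% of tested genes were called, 25% lower and 26.2% higher (2784 and 2911 genes, or 3480 and 2293 with reads scaled to the total in genes). Nfkbiz had 2.57 and 2.28 CPM with both agents and 52.2 and 43.7 CPM with GW9662 alone, a 19.8-fold difference of the means (log2 difference -3.83, SE 0.12, limma adjusted p = 4.00e-07). Il1b had 0.266 and 0.678 CPM with both and 10.7 and 11.8 CPM with GW9662 alone (log2 difference -3.07, SE 0.19, limma adjusted p = 9.01e-06), beside summed neutrophil markers of 111 and 148 CPM and 294 and 240 CPM. Nlrp3 differed by a log2 value of -2.39 (SE 0.10), Il10 by -1.59 (SE 0.12), Tnf by -0.94 (SE 0.13) and Nfkbia by -0.78 (SE 0.06), all with a limma adjusted p of at most 0.000725. Here the IL-4 groups again lay wholly below those without IL-4.

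With IL-4 present, adding GW9662 called 0 of 8 tested members, where 0% of all genes were called and 1 had an unadjusted p under 0.05. Small unadjusted p-values were thus far rarer than unchanged genes alone would give, and the IL-4 group had a weight of only 0.21 in the fit. The comparison could hardly call a gene, so its 0 does not show that GW9662 had no effect. The levels with both agents and with IL-4 alone were 14.1 and 12.1 CPM for Nlrp3, 61.0 and 59.7 CPM for Nfkbia, 2.42 and 2.20 CPM for Nfkbiz, and 3.57 and 3.62 CPM for Il10. GW9662 alone against vehicle likewise called 0 of 9 members and 0% of all genes by limma, with 258 genes at an unadjusted p under 0.05. In that comparison Il1b stood out among the members, with 10.7 and 11.8 CPM with GW9662 and 24.2 and 15.9 CPM with vehicle. Its log2 difference was -0.75 (SE 0.20, limma adjusted p = 0.988), and it was called when the way of counting entered the fit as a term (adjusted p = 0.0002). The summed neutrophil markers were 294 and 240 CPM with GW9662 and 201 and 266 CPM with vehicle. The IL-4 response with GW9662 minus that without it was called for 0 of 9 members and for 0% of all genes, with 14 genes at an unadjusted p under 0.05 and so with the same limit. Its largest value among the members was 0.81 for Il1b (SE 0.47, limma adjusted p = 1), and the other 8 lay between -0.13 and 0.21.

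The first 3 h of IL-4 in the memory experiment moved the set in both directions. In knockout cells Nfkbiz, Tnf and Nlrp3 fell and Il10 and Tnfaip3 rose, of 9 tested, where 44.3% of genes were called, 22.8% lower and 21.5% higher. In wild-type cells Nfkbiz, Tnf, Nlrp3, Nfkbia and Il1b fell while Il10, Tnfaip3 and Tgfb1 rose, of 9 tested, where 49.9% of tested genes were called, 25.1% lower and 24.7% higher. Il1b entered this test only through its unstimulated mean of 1.24 CPM, against 0.512 CPM first-exposed. Such an entry favours a fall, so its call is weak support. The median log2 difference of the members was -0.10 in knockout and -0.23 in wild-type cells, against -0.02 and -0.01 over all tested genes.

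Nfkbiz had 2.64 and 3.51 CPM in first-exposed and 46.3 and 43.1 CPM in unstimulated knockout cells, and 2.85 and 2.22 CPM in first-exposed and 40.6 and 38.6 CPM in unstimulated wild-type cells. It was 14.5-fold lower in knockout cells (log2 difference -3.50, SE 0.16, limma adjusted p = 2.70e-11) and 15.6-fold lower in wild type (-3.53, SE 0.15, limma adjusted p = 1.76e-11). Tnf had 10.8 and 6.67 CPM in first-exposed and 32.6 and 34.2 CPM in unstimulated knockout cells, and 5.53 and 5.30 CPM in first-exposed and 23.7 CPM in each unstimulated wild-type library. The fall was 3.81-fold in knockout cells (limma adjusted p = 2.07e-07) and 4.38-fold in wild type (limma adjusted p = 8.09e-08). Nlrp3 moved less, at 82.6 and 80.7 CPM in first-exposed against 141 and 130 CPM in unstimulated knockout cells, and 80.8 and 81.8 CPM in first-exposed against 128 and 134 CPM in unstimulated wild-type cells. The means differed 1.66-fold in knockout (limma adjusted p = 1.52e-07) and 1.61-fold in wild-type cells (limma adjusted p = 2.29e-07).

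Il10 had 24.0 and 27.9 CPM in first-exposed and 12.5 and 10.96 CPM in unstimulated knockout cells, and 21.7 and 20.8 CPM in first-exposed and 8.24 and 8.28 CPM in unstimulated wild-type cells. Every first-exposed library was above every unstimulated one of its genotype, 2.21-fold in the means of knockout (log2 difference 1.08, SE 0.16, limma adjusted p = 2.98e-05) and 2.57-fold in wild type (1.26, SE 0.15, limma adjusted p = 3.90e-06). Tnfaip3 had 40.4 and 46.5 CPM in first-exposed and 24.3 and 27.7 CPM in unstimulated knockout cells, and 42.1 and 37.9 CPM in first-exposed and 24.5 and 29.0 CPM in unstimulated wild-type cells. It was 1.67-fold higher in knockout (limma adjusted p = 0.00018) and 1.49-fold higher in wild type (limma adjusted p = 0.00112, and 0.0906 without group weights). Tnfaip3 and Il10 were thus higher at 3 h while Nfkbiz and Tnf were lower. The brakes on NF-kB did not move together, since Nfkbia was lower in wild type and not called in knockout cells.

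Nfkbia and Tgfb1 differed by less. Nfkbia had 86.9 and 91.1 CPM in first-exposed and 97.4 and 96.2 CPM in unstimulated knockout cells (log2 difference -0.12, SE 0.07, limma adjusted p = 0.2), and 82.9 and 75.4 CPM in first-exposed and 92.1 and 93.2 CPM in unstimulated wild-type cells (-0.23, SE 0.07, limma adjusted p = 0.0146). Tgfb1 averaged 454 CPM in first-exposed wild-type cells, whose libraries could not be recovered for this gene and entered as 1 mean, and had 358 and 384 CPM in unstimulated ones (log2 difference 0.29, SE 0.08, limma adjusted p = 0.00554). In knockout cells it had 459 and 402 CPM in first-exposed and 452 and 440 CPM in unstimulated libraries, which overlapped. Il1b was at 0.446 and 0.578 CPM (5 and 6 reads) in first-exposed and 0.939 and 1.55 CPM (9 and 14 reads) in unstimulated wild-type cells, and its call (limma adjusted p = 0.0488) was lost in 17 of 25 alternatives.

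Of these wild-type calls, that of Nfkbia was lost without the deeper (adjusted p = 0.0558) or shallower (adjusted p = 0.0716) unstimulated library or the shallower first-exposed one (adjusted p = 0.125), and that of Tgfb1 without the deeper unstimulated library (adjusted p = 0.0668). Il1b lost its call without either first-exposed library (adjusted p = 0.163 and 0.08) and without the shallower unstimulated one (adjusted p = 0.334). Without both second-exposed wild-type libraries in the fit, 5 knockout and 7 wild-type members were called, with or without group weights. The first response in knockout minus that in wild-type cells was called for 0 of 9 members, where 0.0261% of all genes were called, and 1443 genes had an unadjusted p under 0.05. Its values ran from -0.34 for Tgfb1 (SE 0.11, limma adjusted p = 0.292) to 0.46 for Il1b (SE 0.32, limma adjusted p = 0.57).

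**Figure D2:**
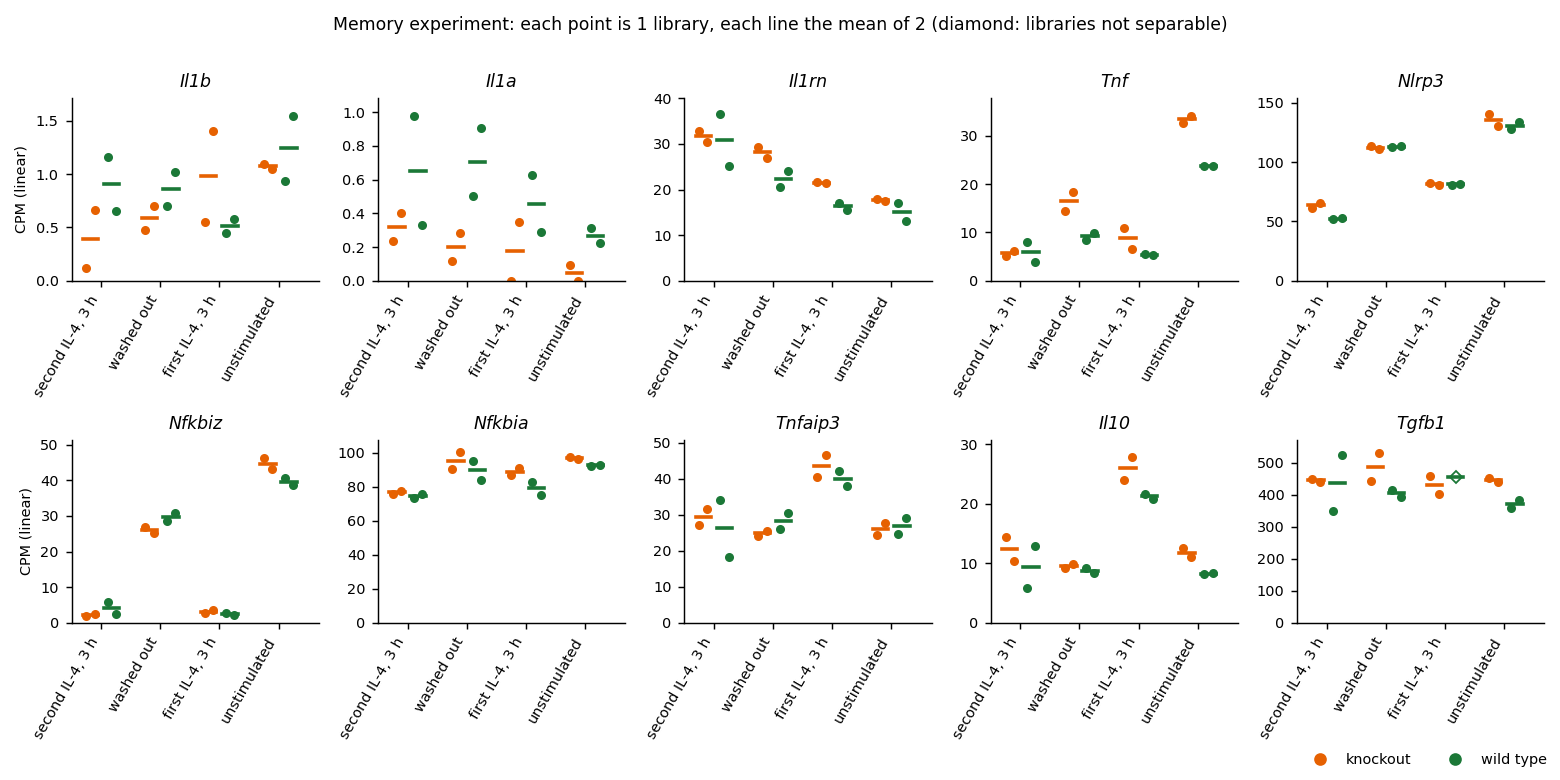
CPM (linear axes from 0) of the 10 genes in the memory experiment, with 1 point per library and a line at the mean of 2 libraries, knockout left of wild type in each state. Nfkbiz is at 1.75 to 5.84 CPM in all libraries with a final 3 h of IL-4 and at 25.1 to 46.3 CPM in those without, while Il10 and Tnfaip3 are highest at the first exposure.

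One day after IL-4 was washed out, Tnf was lower and Il1rn was higher in both genotypes than in cells that had never had IL-4. The sample titles do not say whether cells without the pretreatment spent the same time in culture. A part of this time, here or at the second exposure, was not tested. In knockout cells 1 of 9 members rose and 3 fell, where 20.1% of genes were called, 9.59% higher and 10.5% lower (1077 and 1178 genes, or 956 and 1600 scaled to the total of reads in genes). In wild-type cells 1 of 9 rose and 1 fell, where 14.5% were called, 7.39% higher and 7.08% lower. Tnf had 14.4 and 18.5 CPM in washed-out and 32.6 and 34.2 CPM in unstimulated knockout cells (log2 difference -0.99, SE 0.17, limma adjusted p = 0.000718), and 8.43 and 9.87 CPM in washed-out and 23.7 CPM in both unstimulated wild-type libraries (-1.29, SE 0.21, limma adjusted p = 0.000638). The means differed 2.03-fold in knockout and 2.59-fold in wild-type cells, without overlap in either.

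Il1rn, the interleukin-1 receptor antagonist, had 29.4 and 26.9 CPM in washed-out and 17.9 and 17.5 CPM in unstimulated knockout cells (log2 difference 0.64, SE 0.12, limma adjusted p = 0.00131). In wild-type cells it had 20.6 and 24.2 CPM washed out and 17.0 and 13.1 CPM unstimulated (0.55, SE 0.15, limma adjusted p = 0.0211). The libraries did not overlap, but the wild-type call was lost without the shallower washed-out (adjusted p = 0.233) or the shallower unstimulated library (adjusted p = 0.14). Nfkbiz had 27.0 and 25.1 CPM in washed-out and 46.3 and 43.1 CPM in unstimulated knockout cells (-0.76, SE 0.16, limma adjusted p = 0.00301), and 28.6 and 31.0 CPM and 40.6 and 38.6 CPM in the same states of wild type (-0.40, SE 0.19, limma adjusted p = 0.193). Nlrp3 had 113 and 111 CPM in washed-out and 141 and 130 CPM in unstimulated knockout cells (-0.27, SE 0.07, limma adjusted p = 0.00893), a call lost without the deeper unstimulated (adjusted p = 0.0709) or the shallower washed-out library (adjusted p = 0.0821). Il10, Tnfaip3, Nfkbia and Tgfb1 passed in neither genotype, with group means of 9.54 CPM washed out and 11.7 CPM unstimulated for Il10 in knockout and 8.71 and 8.26 CPM in wild-type cells. Without group weights none of the 4 knockout calls and 1 of the 2 wild-type calls passed, but all 6 did without weights once the second-exposed wild-type libraries were left out. The washout change in knockout minus that in wild type was called for 0 of 9 members and 0% of all genes by limma, with 884 genes at an unadjusted p under 0.05.

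At the second exposure Nfkbiz was again low. In knockout cells 0 of 8 tested members rose and 4 fell on restimulation, where 35.9% of genes were called, 19.3% higher and 16.5% lower, and in wild-type cells 0 of 8 rose and 2 fell, where 5.03% were called, 2.73% higher and 2.31% lower. Nfkbiz had 1.75 and 2.39 CPM in second-exposed and 27.0 and 25.1 CPM in washed-out knockout cells (log2 difference -3.15, SE 0.17, limma adjusted p = 3.14e-10), and 5.84 and 2.30 CPM and 28.6 and 31.0 CPM in the same states of wild type (-2.69, SE 0.52, limma adjusted p = 0.00704). The second-exposed wild-type group had the lowest weight in the fit, and the call was lost without the shallower of them (adjusted p = 0.159). Nlrp3 had 61.7 and 65.8 CPM in second-exposed and 113 and 111 CPM in washed-out knockout cells (-0.81, SE 0.07, limma adjusted p = 1.08e-07), and 52.0 and 53.0 CPM and 113 CPM in both libraries in wild type (-1.09, SE 0.22, limma adjusted p = 0.0083). That wild-type call was lost without the deeper second-exposed library, the one with the fibroblast markers (adjusted p = 0.0578). Tnf in knockout cells had 5.12 and 6.25 CPM second-exposed and 14.4 and 18.5 CPM washed out (-1.38, SE 0.18, limma adjusted p = 1.51e-05). Nfkbia had 75.9 and 77.5 CPM second-exposed and 90.4 and 100.3 CPM washed out in knockout cells (-0.31, SE 0.08, limma adjusted p = 0.00434), a call lost without the shallower washed-out library (adjusted p = 0.0844).

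Il10 and Tnfaip3 stood lower at the second than at the first exposure in knockout cells. Of 8 tested members, 1 was higher and 4 were lower there, where 23% of genes were called, 12.9% higher and 10.1% lower (1439 and 1131 genes, or 1116 and 1651 scaled to the total of reads in genes and 1176 and 1505 with TMM-type scaling). Il10 had 14.4 and 10.4 CPM in second-exposed and 24.0 and 27.9 CPM in first-exposed knockout cells, a 2.09-fold difference of the means (log2 difference -1.02, SE 0.16, limma adjusted p = 0.000269). Tnfaip3 had 27.1 and 31.7 CPM second-exposed and 40.4 and 46.5 CPM first-exposed (-0.55, SE 0.13, limma adjusted p = 0.0058), and lost its call without the deeper second-exposed (adjusted p = 0.0556) or the shallower first-exposed library (adjusted p = 0.0841). Nlrp3 was lower by 0.35 on the log2 scale and Tnf by 0.52, the second of which was lost in 17 alternatives (adjusted p = 0.553 without the deeper first-exposed library). Il1rn was higher, with 32.9 and 30.5 CPM second-exposed and 21.7 and 21.4 CPM first-exposed (0.54, SE 0.13, limma adjusted p = 0.0054). Without group weights the calls of Il1rn (adjusted p = 0.0949), Tnfaip3 (adjusted p = 0.197) and Tnf (adjusted p = 0.341) were lost. With limma-voom those of Il1rn (adjusted p = 0.145), Tnfaip3 (adjusted p = 0.259), Tnf (adjusted p = 0.432) and Il10 (adjusted p = 0.0525) were lost.

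In wild-type cells the same comparison called 0 of 8 members, where 0.311% of genes were called (22 higher and 15 lower, or 20 and 23 with TMM-type scaling) and 1027 had an unadjusted p under 0.05. Il10 had 5.78 and 12.9 CPM second-exposed and 21.7 and 20.8 CPM first-exposed (log2 difference -1.19, SE 0.50, limma adjusted p = 0.453). Il1rn had 36.6 and 25.1 CPM and 17.1 and 15.6 CPM (0.85, SE 0.38, limma adjusted p = 0.531), and Nlrp3 had 52.0 and 53.0 CPM and 80.8 and 81.8 CPM (-0.62, SE 0.21, limma adjusted p = 0.254). All 3 were called without group weights. Calls over all genes in this comparison ranged from 7 to 1245 across the settings other than leaving out a library. The deeper second-exposed library, with its fibroblast markers, also had 95.4 CPM of neutrophil markers, 80.9 CPM of it from Ngp. Its partner had 28.5 CPM of them and the other memory libraries 12.3 to 44.7 CPM. The part of the fibroblast and neutrophil markers in these values was not tested. The second response minus the first was called for 0 of 9 members in knockout (1.49% of all genes; 1834 at an unadjusted p under 0.05) and for 0 of 9 in wild-type cells (0.0248% of all genes; 727 at an unadjusted p under 0.05). For Il10 it was -0.75 in knockout (SE 0.23, limma adjusted p = 0.119, and 0.0487 without the deeper second-exposed library) and -1.26 in wild-type cells (SE 0.54, limma adjusted p = 0.697).

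**Figure D3:**
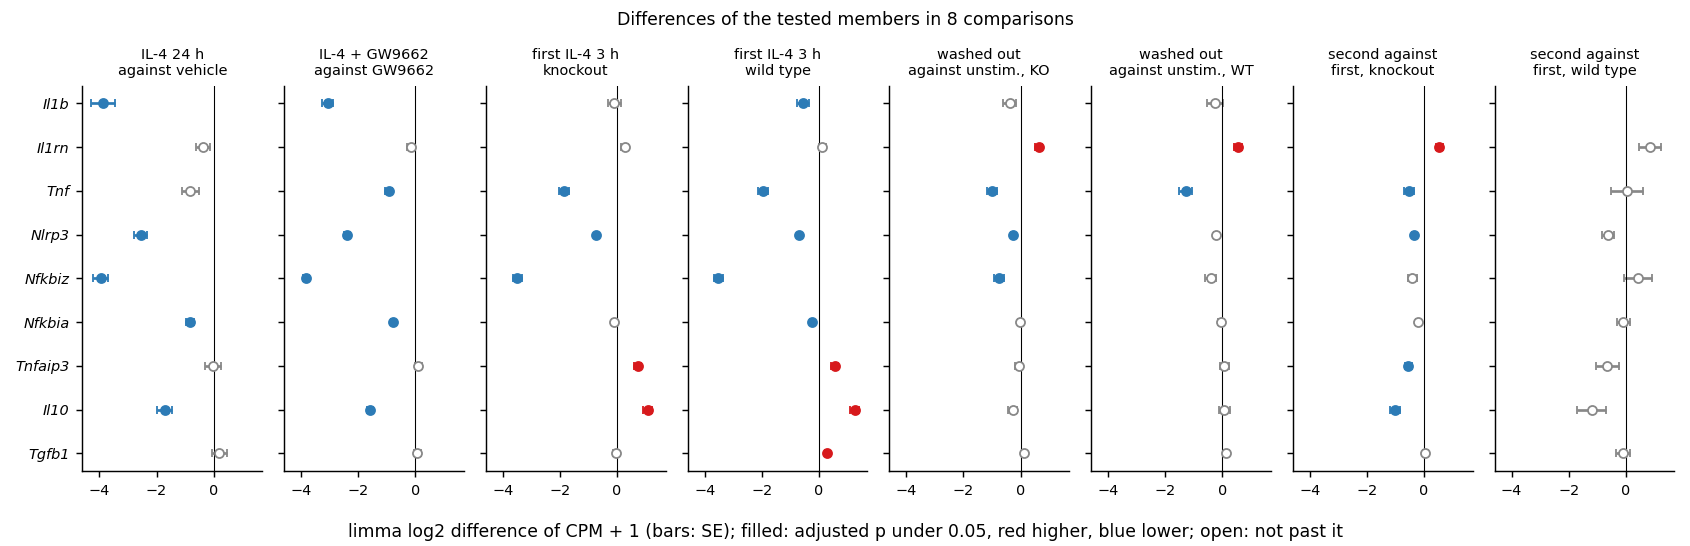
Log2 differences of CPM + 1 with their SE (x axis) for the tested members (y axis) in 8 comparisons, filled where the limma adjusted p is under 0.05. Nfkbiz has a log2 difference of -3.96 to -3.50 wherever cells still in IL-4 are set against cells that had none, and a smaller one after washout. Il10 is on the lower side at 24 h and on the higher side at the first 3 h.

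Knockout and wild-type cells were compared in each state. Unstimulated, 2 of 9 members were higher in knockout cells, where 18.5% of genes were called, 7.85% higher and 10.7% lower. Il10 had 12.5 and 10.96 CPM in knockout and 8.24 and 8.28 CPM in wild-type cells (log2 difference 0.46, SE 0.15, limma adjusted p = 0.0443). Tgfb1 had 452 and 440 CPM in knockout and 358 and 384 CPM in wild-type cells (0.27, SE 0.08, limma adjusted p = 0.0233). Both calls were lost without group weights (adjusted p = 0.543 for Il10 and 0.579 for Tgfb1) and without the deeper unstimulated wild-type library (adjusted p = 0.193 and 0.21), and Il10 lost its call in 18 alternatives. With the way of counting as a term, 12 genes were called in all, against 2090 without it, and none of the 8 members in that fit was called. Tgfb1 was not in it, since 1 of its values could not be separated.

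Tnf lay above wild type in knockout cells in 3 states without passing. Its means were 33.4 and 23.7 CPM unstimulated (log2 difference 0.48, SE 0.17, limma adjusted p = 0.0563), 8.75 and 5.41 CPM first-exposed (0.57, SE 0.18, limma adjusted p = 0.0565), and 16.4 and 9.15 CPM washed out (0.77, SE 0.22, limma adjusted p = 0.0612), knockout first in each. Second-exposed means were 5.69 CPM in knockout and 5.97 CPM in wild type. First-exposed cells had 0 of 8 members called, where 9.18% of genes were called, 1.57% higher and 7.61% lower (176 and 856 genes, or 355 and 756 scaled to the total of reads in genes, with Tnf and Il1rn then called), and 2289 genes had an unadjusted p under 0.05. Washed-out cells had 0 of 8 called by limma, where 3.31% of genes were called and 2898 had an unadjusted p under 0.05, and second-exposed cells 0 of 8, where 0.0168% were called and 1053 had one. Of 26 alternative settings, Tnf passed between the genotypes in 4 unstimulated, 5 first-exposed and 3 washed out. Its log2 difference ran over these settings from 0.27 to 0.51, 0.26 to 0.88 and 0.60 to 0.94 in the same order.

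Other genes of the same pathways were counted in lists. Of all tested genes, 18.3% were called at 24 h (9.87% higher and 8.48% lower). At the first 3 h, 44.3% were called in knockout cells (21.5% higher and 22.8% lower) and 49.9% in wild type (24.7% higher and 25.1% lower). No list was tested as a whole. Of 24 further NF-kB pathway genes, IL-4 for 24 h raised 2 and lowered 5. The first 3 h raised 6 and lowered 10 in knockout cells and raised 6 and lowered 8 in wild type. Nfkb1, which encodes the p105 precursor of an NF-kB subunit, had means of 363 CPM in first-exposed and 189 CPM in unstimulated wild-type cells (log2 difference 0.94, SE 0.05, limma adjusted p = 6.42e-10). The NF-kB family cofactor Bcl3 had 15.3 and 31.8 CPM in the same states (-1.01, SE 0.14, limma adjusted p = 1.18e-05), and at 24 h the subunit gene Relb had 47.0 CPM with IL-4 and 89.8 CPM with vehicle (-0.94, SE 0.19, limma adjusted p = 0.0129). Of 15 genes of the inflammasome and of cytokine release, 1 rose and 5 fell at 24 h, 0 rose and 11 fell at the first 3 h in knockout, and 1 rose and 8 fell in wild-type cells. The median log2 difference of these 15 was -0.58 at 24 h, -0.41 in knockout and -0.34 in wild type, against -0.02, -0.02 and -0.01 over all tested genes. The DNA sensor Aim2 had 16.8 CPM in first-exposed and 36.0 CPM in unstimulated wild-type cells, while Pycard, the adaptor of the inflammasome, had 210 CPM with IL-4 for 24 h and 116 CPM with vehicle.

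Among the receptors of the member cytokines, Il1r1, the signalling receptor of interleukin-1, had 10.4 CPM in first-exposed and 0.378 CPM in unstimulated knockout cells, and 8.53 and 0.0552 CPM in the same states of wild type (limma adjusted p = 8.64e-08 and 4.23e-08). Its partner chain Il1rap had 86.5 and 14.4 CPM in knockout and 77.5 and 14.98 CPM in wild-type cells (limma adjusted p = 7.93e-12 and 1.62e-11). Both chains rose within 3 h. In the list as a whole 2 were higher and 6 lower of 11 in knockout and 2 higher and 4 lower of 11 in wild type, where 44.3% and 49.9% of all genes were called. Il10ra, the ligand-binding chain for interleukin-10, fell at 24 h to 201 CPM with IL-4, against 465 CPM with vehicle (log2 difference -1.21, SE 0.18, limma adjusted p = 0.00387). Of 13 tested genes around TGF-β activation and SMAD signalling, 3 rose and 3 fell at 24 h, where 9.87% of all genes were higher and 8.48% lower. Among them Lrrc32, which displays latent TGF-β on the cell surface, had 71.0 CPM with IL-4 and 0.380 CPM with vehicle (log2 difference 5.71, SE 0.38, limma adjusted p = 0.000114), and Thbs1, whose product can activate latent TGF-β, had 12.7 and 208 CPM (-3.92, SE 0.25, limma adjusted p = 0.000106).

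Of 12 tested early-response and mRNA-decay regulators, 5 rose and 1 fell at 24 h, and in the first 3 h 7 of 13 rose and 3 fell in knockout cells and 8 of 12 rose and 3 fell in wild type. Of all genes 9.87%, 21.5% and 24.7% were higher and 8.48%, 22.8% and 25.1% lower in these comparisons. Zc3h12a, whose product degrades inflammatory transcripts, had 101 CPM in first-exposed and 33.8 CPM in unstimulated knockout cells, and 89.8 and 31.3 CPM in the same states of wild type. Fos, an AP-1 subunit, had 18.8 and 77.5 CPM in knockout and 13.9 and 65.3 CPM in wild-type cells, and was thus lower, as Tnf and Nfkbiz were. Of 17 other cytokines only 5 reached the 1 CPM needed for a test in these 3 comparisons, 2 of which fell in each, Il15 and Tnfsf9. None of the tested ones rose. Of all genes 18.3% were called at 24 h (8.48% lower). At the first 3 h 44.3% were called in knockout (22.8% lower) and 49.9% in wild type (25.1% lower). With both directions counted, the share of the list at 3 h is no higher than that of all genes.

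Over the 8 groups of the memory experiment, the genes with the most similar log2 levels were sought for each member among 2700 genes with at least 10 CPM in some group and a range of at least 1 log2. The groups share libraries and depth, so these are descriptions. Nfkbiz was nearest to Pik3r5 (Pearson r = 0.994), Slc16a10 and F630028O10Rik, Tnf to the lipopolysaccharide co-receptor gene Cd14 (r = 0.99), Rasgef1b and Xylt2, and Nlrp3 to Plxnb2 (r = 0.995) and Dock8. Tnfaip3 was nearest to Sypl (r = 0.988), Pgm2l1 and Zfp874a, Il10 to Ikzf1 (r = 0.957), Apbb1ip and Fam72a, and Il1rn to Mrgpre (r = 0.987), Alas1 and Phlda3. Nfkbia had Cacna1a (r = 0.96), 2510009E07Rik and Ccl3 as its nearest genes, and Tgfb1 had Saa3 (r = 0.829), Hebp1 and Cd5l. Il1a, at a few reads per library, had Chi3l4 (r = 0.941) first.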

How the data were processed

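The tools named in the submitters' processing notes are Cufflinks 2.0.2 and TopHat2 2.0.7, with mm10 as the build; what each was used for is not given in the sources used here. The authors deposited 1 signal value per gene and group in each of 2 tables, which by its steps is the mean of both libraries in CPM. Columns summed to 951943 to 1054527. Of 171808 values above 0, 170902 (99.47%) had 1 solution as whole reads of 2 libraries, 298 were settled as the only plausible one and 608 stayed unresolved. The unresolved values held 28.2% to 35.8% of the CPM in the antagonist groups and 5.40% to 26.3% in the memory groups. For them the reads in genes, and the settings scaled by these, rest on the group mean. Of 120 member values 119 had 1 solution. Replicate numbers of the libraries are not known.

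limma-trend 3.58.1 (R 4.3.3) was run per table on log2(CPM + 1), with 1 coefficient and 1 array weight per group, keeping a gene if 1 of the groups compared averaged 1 CPM or more, with Benjamini-Hochberg adjustment and a threshold of 0.05, in 21 comparisons. Fold changes of log values understate the change of low genes; folds in the text are of mean CPM. An unresolved value entered once as the mean with weight 2. Group weights were 0.21 for IL-4 at 24 h, 0.08 for second-exposed wild-type cells and 0.82 to 2.62 for the others. The scripts were tested on simulated tables. Libraries were assigned a way of counting from 189 genes sharing at least 50% of their 50-base words with other genes.

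All 10 members, and from each other list the 2 genes moving most each way among those past the threshold, could be named; the text names some of these. The members and lists were chosen with earlier results of these data known. Some of the genes most similar to a member are not reported here.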

Additional observations from a re-analysis of the deposited data

Results flagged for a closer look

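Il10 was set apart because its libraries moved in opposite directions at 3 h and at 24 h of IL-4. In first-exposed cells all libraries were above the unstimulated ones, with a log2 difference of 1.08 in knockout and 1.26 in wild-type cells, while both libraries with IL-4 for 24 h were below both vehicle libraries. Il1rn was set apart for the same reason, with a log2 difference of 0.27 in first-exposed knockout cells and values below vehicle at 24 h, neither of which passed the threshold. The times come from separate experiments and tables, and the difference between them was not tested.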

How the results depend on the processing

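Of the 21 comparisons, these changed their number of called members by over 1.5 times. Without group weights the number was 4 at the first IL-4 in wild type (8 in the report), 1 at its washout (2), 3 for its second against first exposure (0), 0 at the knockout washout (4), 2 for the knockout second against first exposure (5) and 0 for unstimulated knockout against wild type (2). With limma-voom the same 6 gave 4, 1, 3, 2, 1 and 0. With the way of counting as a term, a fit that leaves out Tgfb1 in the memory table, GW9662 alone gave 1, the wild-type washout 1, the wild-type second against first exposure 1 and unstimulated knockout against wild type 0; without a filter the last gave 0. Knockout against wild type at the first exposure gave 1 with TMM-type scaling and 2 with reads scaled to their total in genes. Without both second-exposed wild-type libraries, unstimulated knockout against wild type gave 1, and 0 without weights too, where washed-out cells gave 1. The last 2 settings and the scaling to total reads were added after the data were seen. No called member reversed its direction under these settings. Calls over all genes shifted with the settings too, with ranges given below, so these member counts do not set the members apart. The causes were not tested.

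Leaving out 1 library gave 4 to 5 called members for IL-4 at 24 h, 6 for IL-4 plus GW9662 against GW9662, 5 for the first exposure in knockout and 6 to 8 in wild type, 1 to 2 for the wild-type washout and for wild-type restimulation, 3 to 4 for the knockout washout, 3 to 5 for knockout restimulation, 3 to 6 for the knockout second against first exposure, 0 to 1 for its second minus first response, and, for knockout against wild type, 0 to 3 unstimulated and 0 to 1 first-exposed or washed out.

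Over all genes, the settings other than leaving out a library gave 1991 to 3624 calls for IL-4 at 24 h (2044 in the report), 0 to 57 for GW9662 alone (0), 3303 to 6395 for both agents against GW9662 (5695), 2443 to 5022 and 2950 to 5676 for the first exposure in knockout (4964) and wild type (5656), 504 to 2556 in knockout and 690 to 2030 in wild type for washout (2255 and 1645), 1878 to 4149 in knockout and 252 to 4453 in wild type for restimulation (4048 and 602), 647 to 2767 in knockout and 7 to 1245 in wild type for second against first (2570 and 37), 0 to 254 in knockout and 0 to 103 in wild type for second minus first (170 and 3). Knockout against wild type gave 12 to 2114 unstimulated (2090), 20 to 1111 first-exposed (1032), 30 to 1380 washed out (376) and 0 to 1314 second-exposed (2). For IL-4 at 24 h, leaving out 1 library gave 757 to 1902 calls, the fewest without the shallower IL-4 library.

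No paired analysis was possible because the libraries recovered from a group mean carry no replicate number. Il1a in all libraries and Il1b in the memory libraries rest on at most 19 reads each, which limits what could be detected in them.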
